A study of Rattus norvegicus with 8 samples.

Results

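GABAergic interneurons are the inhibitory neurons of the hippocampus, and 7 transcripts that mark them were followed here: Gad1, Gad2, Slc32a1, Sst, Pvalb, Vip and Cck. They were chosen by gene identity, as 7 of the 26405 Ensembl gene IDs in a table of read counts, and all 7 were abundant enough to be tested. The tables carry only IDs, so the symbols are those assigned to the IDs when the genes were chosen. Total RNA came from the right hippocampus of 8 female Sprague-Dawley rats, each 28 months old and each injected intracerebroventricularly with an adenovector. In the 4 rats of the IGF1 group the vector expressed rat IGF-I, insulin-like growth factor I, and in the 4 rats of the DsRed group it was the placebo vector, named for the red fluorescent protein DsRed. All 8 rats thus carried an adenovector, and neither uninjected nor young rats were among the groups. The labels do not name the promoter that drives the transgene or the cells that took it up. The question was whether the IGF-I vector, set against the placebo, was accompanied by a different level of inhibitory neuron transcripts in old age.

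Inhibitory neurons make GABA from glutamate with 2 forms of glutamic acid decarboxylase, GAD67 from Gad1 and GAD65 from Gad2, and the transporter VGAT from Slc32a1 loads it into synaptic vesicles. These genes are shared by nearly all GABAergic cells. The others mark subclasses: somatostatin cells include dendrite-targeting interneurons of the stratum oriens and the hilus, parvalbumin cells include fast-spiking basket cells, VIP cells include interneurons that inhibit other interneurons, and cholecystokinin cells include a further class of basket cells. Cck is also transcribed in some excitatory hippocampal neurons, so its level in whole tissue is not interneuron-specific. In whole hippocampus, fewer cells of a type and less RNA per cell cannot be told apart. Other GABA pathway genes, and markers of other cell types and of neighbouring tissue, are not paired with IDs in the sources used here, so they and the labelled tissue's defining markers were not analysed.

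Libraries held 16347636 to 27377086 reads assigned to genes, with a further 30.7% to 32.9% of tabulated reads assigned to no annotated feature. One library stood apart from the rest. Across genes, the mean Spearman correlation of IGF1 replicate 1 with its 7 companions was 0.986, where theirs were 0.991 to 0.994, and it had both the most gene reads and the highest share outside features. It was the highest of the 8 libraries for 25.5% of the 14522 IDs tested and the lowest for 23.5%. Fold changes, sums, ratios and the correlations named below are therefore also given without it.

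Somatostatin is a classic gene of the cAMP response element, the palindrome TGACGTCA bound by the factor CREB, and Vip is another textbook target of cAMP signalling. Short stretches around the element or its first 5 bases, TGACG, are shown for Sst, Vip and Slc32a1. These genes were picked after their levels had been seen, as each was highest in IGF1 replicate 1 and lowest in DsRed replicate 2. Cck was too, but could not be searched. DsRed replicate 3 was above the median of the 8 for Slc32a1 and below it for Sst and Vip. Gad1, in which no match was found, had a Pearson r of 0.83 with Sst, against 0.74 for Slc32a1 with Sst. No correlation between the levels of Sst, Vip and Slc32a1 over the 8 libraries passed correction, as given below. Pvalb is shown beside them as the gene that was lowest in IGF1 replicate 1. RefSeq windows (build GRCr8, 250 bases before to 50 after an annotated start) were matched by symbol for 6 of the 7 genes. Both strands were searched, and the short motif is contained in the palindrome. The full palindrome was found in Sst, and 1.83% of all 33469 windows hold it. The short motif was found in 4 of the 6 (Slc32a1, Sst, Pvalb and Vip), and 21.2% of all windows hold it. Slc32a1 holds a further match from base 27 of its transcript, which is not printed. Each line gives 30 bases, 5′ to 3′ on the strand of the gene, with the match in capitals.
Sst, chr11:90461537-90461566, plus strand, match from base 3 of the annotated transcript: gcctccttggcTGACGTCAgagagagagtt
Vip, chr1:44470370-44470399, plus strand, match 97 bases before the start: gggatcaccactgTGACGtctttcgaggag
Slc32a1, chr3:167687052-167687081, plus strand, match 180 bases before the start: cgcgtagctgttcTGACGctgccgtcgccg
Pvalb, chr7:111666510-111666539, minus strand, match 241 bases before the start: gatggtcccTGACGgcgggatcctgatcaa
Of the genes that were highest in IGF1 replicate 1, Sst, Vip and Slc32a1 hold the short motif, Gad1 does not, and Cck had no window. Pvalb, which was lowest there, holds it, and Gad2 does not. A relation between the motif and the levels was not tested. The matches are a description of letters, and binding was not measured.

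For none of the 7 transcripts was a difference between the vectors detected beyond the spread between rats. Fitted differences ran from 0.953-fold for Pvalb to 1.16-fold for Cck, and the IGF1 and DsRed libraries overlapped for every one of the 7. In edgeR's quasi-likelihood test 0 of 7 passed an adjusted p of 0.05, where 0% of all IDs did, and 0 of 7 had an unadjusted p under 0.05, where 6.6% of all IDs did. DESeq2, edgeR's likelihood ratio test and limma voom also called 0 of the 7, where they called 0.0778%, 0.0757% and 0% of all IDs, so a count of 0 is near that background in each test. Groups that did not overlap were found for 0 of 7 members and for 4.71% of all IDs. Fitted log2 fold changes were above 0 for 4 members and below 0 for 3, with a median of 0.087 against 0.0027 over all IDs. Without IGF1 replicate 1 the median of the members was 0.02. Values below are in CPM, the read count scaled to a common library size with TMM factors (edgeR's CPM). They compare 1 gene between libraries and not 1 gene with another, since gene length is not taken into account.

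Gad1 (ENSRNOG00000000007), the gene for the GAD form spread through the cell body and the terminals, was highest in IGF1 replicate 1. Its level was 214.2, 181.5, 181.1 and 176.0 CPM in IGF1 replicates 1 to 4. DsRed replicates 1 to 4 had 164.6, 181.9, 168.1 and 194.5 CPM. Apart from IGF1 replicate 1, the IGF1 rats lay inside the DsRed range. Group means were 177 ± 13.7 CPM for DsRed and 188 ± 17.5 CPM for IGF1 (SD, n = 4 each). The log2 fold change was 0.087 (SE 0.077, 95% interval -0.086 to 0.26), and edgeR's quasi-likelihood fit gave an adjusted p of 0.80. It was 0.02 with IGF1 replicate 1 left out.

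Gad2 (ENSRNOG00000018200), the gene for the GAD form concentrated at nerve terminals, had nearly equal group means, 71.3 ± 6.78 CPM for DsRed and 71.1 ± 12.1 CPM for IGF1 (SD, n = 4 each). The IGF1 rats nevertheless held both ends of its range. IGF1 replicates 1 to 4 had 63.3, 61.2, 71.9 and 87.9 CPM, and DsRed replicates 1 to 4 had 68.3, 63.5, 74.6 and 78.9 CPM. The log2 fold change was -0.0061 (SE 0.115, 95% interval -0.26 to 0.25), and edgeR's quasi-likelihood fit gave an adjusted p of 0.996. Unlike Gad1, it was not high in IGF1 replicate 1, where it ranked 7 of 8 from the highest.

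Slc32a1 (ENSRNOG00000015393), which encodes the vesicular GABA transporter, was at 65.7, 54.6, 54.4 and 56.0 CPM in IGF1 replicates 1 to 4. DsRed replicates 1 to 4 had 60.4, 51.4, 62.5 and 63.3 CPM. The highest rat was IGF1 replicate 1 and the lowest DsRed replicate 2, so the groups overlapped. Group means were 59.4 ± 5.49 CPM for DsRed and 57.7 ± 5.41 CPM for IGF1 (SD, n = 4 each). The log2 fold change was -0.039 (SE 0.085, 95% interval -0.23 to 0.15), and edgeR's quasi-likelihood fit gave an adjusted p of 0.934. It was -0.11 without IGF1 replicate 1, with an adjusted p of 0.831.

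Added up, the 3 genes that GABAergic neurons share came to 308 ± 19.7 CPM for DsRed and 317 ± 19.8 CPM for IGF1 (SD, n = 4 each). This 8.98 CPM difference was smaller than the spread between rats, and exact two-sided permutation gave a p of 0.514, where 4 rats against 4 allow a smallest p of 0.0286. It was 0.221 CPM with IGF1 replicate 1 left out. Gad1 gave most of the sum, at 177 CPM for DsRed and 188 CPM for IGF1. The fitted changes of Gad2 and Slc32a1 were below 0, and gene length is not taken into account.

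**Figure D1:**
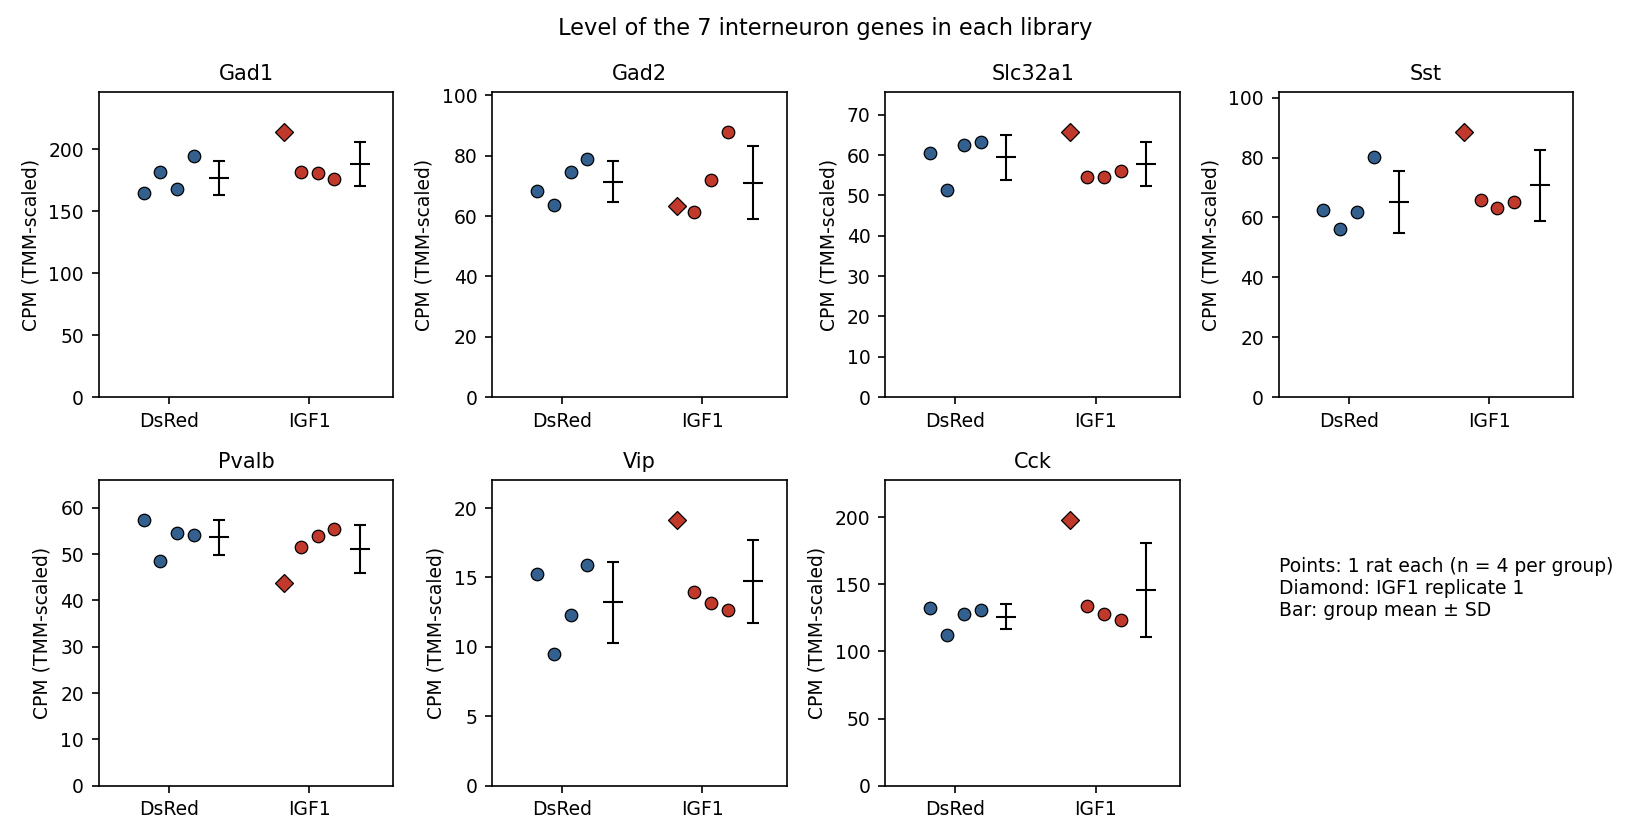
Level of each gene (y axis, TMM-scaled CPM, from 0) in the DsRed and IGF1 groups; each point is 1 rat, the diamond is IGF1 replicate 1 and the bar is the group mean with its SD (n = 4). The diamond is the highest point for Gad1, Slc32a1, Sst, Vip and Cck and the lowest for Pvalb, and the other IGF1 points lie within or near the DsRed range apart from Gad2 in IGF1 replicate 4, at 87.9 CPM.

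The transcript of Sst (ENSRNOG00000001837), the gene for somatostatin, a peptide that acts on inhibitory G protein-coupled receptors, was highest in IGF1 replicate 1 and next highest in a placebo rat. IGF1 replicates 1 to 4 had 88.6, 65.8, 63.2 and 65.03 CPM. DsRed replicates 1 to 4 had 62.4, 56.2, 61.7 and 80.2 CPM. One rat of each group was thus well above the rest. Group means were 65.1 ± 10.4 CPM for DsRed and 70.7 ± 11.998 CPM for IGF1 (SD, n = 4 each). For Sst the log2 fold change was 0.12 (SE 0.133, 95% interval -0.18 to 0.42), and edgeR's quasi-likelihood fit gave an adjusted p of 0.841. With IGF1 replicate 1 left out it was -0.0059.

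Vip (ENSRNOG00000018808), which encodes vasoactive intestinal peptide, varied most of the 7 between rats, with a 2.01-fold span over the 8 libraries. IGF1 replicates 1 to 4 had 19.1, 13.9, 13.2 and 12.7 CPM. DsRed replicates 1 to 4 had 15.2, 9.51, 12.3 and 15.9 CPM. The lowest rat was DsRed replicate 2 and the highest IGF1 replicate 1. Group means were 13.2 ± 2.92 CPM for DsRed and 14.7 ± 2.98 CPM for IGF1 (SD, n = 4 each). The log2 fold change of Vip was 0.17 (SE 0.18, 95% interval -0.23 to 0.57), and edgeR's quasi-likelihood fit gave an adjusted p of 0.832. The estimate was 0.02 when IGF1 replicate 1 was left out. Vip rested on 218 to 524 reads per library, the fewest of the 7, so counting error alone came to 4.37% to 6.77% of its value.

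Cck (ENSRNOG00000019321), the cholecystokinin gene, had the largest fitted difference of the 7, and most of it came from 1 rat. IGF1 replicates 1 to 4 had 197.6, 134.0, 127.6 and 123.6 CPM. DsRed replicates 1 to 4 had 132.6, 112.1, 128.2 and 130.6 CPM. IGF1 replicate 1 was 1.54 times the median of the other 7 rats, which lay between 112.1 and 134.0 CPM. Group means were 126 ± 9.37 CPM for DsRed and 146 ± 34.9 CPM for IGF1 (SD, n = 4 each). The log2 fold change was 0.21 (SE 0.14, 95% interval -0.10 to 0.53), and edgeR's quasi-likelihood fit gave an adjusted p of 0.759. The same fit gave 0.031 without IGF1 replicate 1, with an adjusted p of 0.961.

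Pvalb (ENSRNOG00000006471), which encodes the calcium buffer parvalbumin of fast-spiking cells, went the other way in IGF1 replicate 1. IGF1 replicates 1 to 4 had 43.8, 51.5, 53.9 and 55.4 CPM, and DsRed replicates 1 to 4 had 57.3, 48.4, 54.6 and 54.2 CPM. The lowest rat of the 8 was IGF1 replicate 1, at 0.808 times the median of the others, and DsRed replicate 2 was next lowest. Group means were 53.6 ± 3.74 CPM for DsRed and 51.2 ± 5.18 CPM for IGF1 (SD, n = 4 each). For Pvalb the log2 fold change was -0.069 (SE 0.082, 95% interval -0.25 to 0.12), and edgeR's quasi-likelihood fit gave an adjusted p of 0.855. It was 0.0027 without IGF1 replicate 1.

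**Figure D2:**
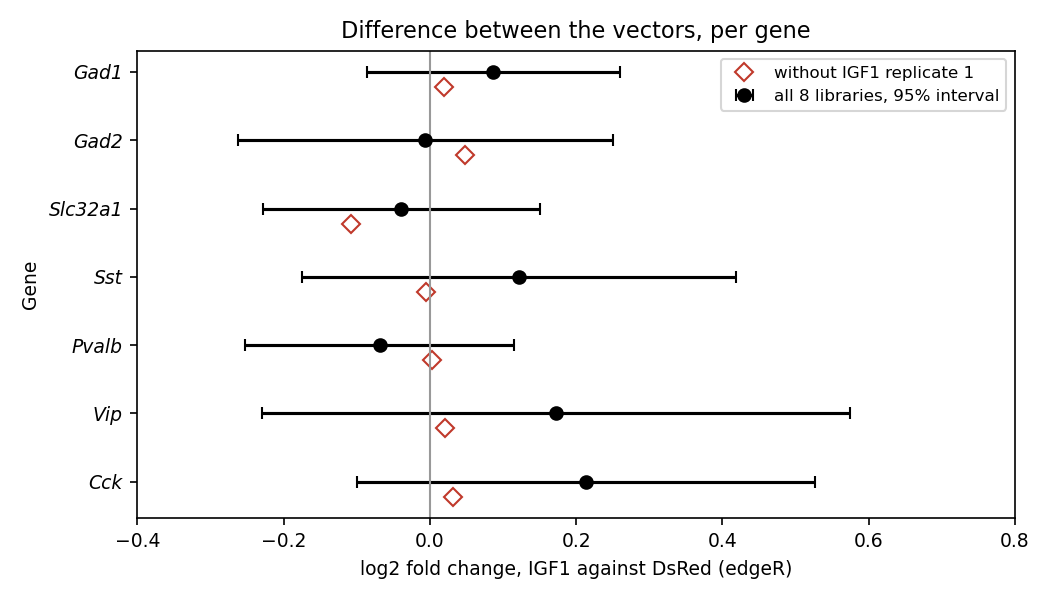
Fitted log2 fold change of IGF1 against DsRed (x axis) for each gene (y axis); black points with bars give edgeR's estimate and 95% interval over 8 libraries, and open diamonds the estimate without IGF1 replicate 1. All 7 intervals include 0, and without that library the estimates lie between -0.11 for Slc32a1 and 0.048 for Gad2.

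The intervals set how large a difference these 4 rats per group could have hidden. For Gad1 the upper bound was 1.20-fold, for Slc32a1 1.11-fold and for Pvalb 1.08-fold. The lower bounds of the 7 genes lay between 0.834-fold, for Gad2, and 0.942-fold, for Gad1. The peptide genes were less precisely determined, with upper bounds of 1.34-fold for Sst, 1.44-fold for Cck and 1.49-fold for Vip. The intervals rest on the spread between rats in these libraries, which the fit draws partly from all IDs tested and not from each gene alone. A p above the threshold does not show that the vectors act alike.

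One rat of the IGF1 group held the extremes of most of these genes. IGF1 replicate 1 was the highest of the 8 libraries for 5 of the 7 genes (Gad1, Slc32a1, Sst, Vip and Cck) and the lowest for Pvalb, where it was highest for 25.5% and lowest for 23.5% of all IDs. Relative to the median of the other 7 rats it stood at 1.54-fold for Cck, 1.45-fold for Vip, 1.40-fold for Sst, 1.18-fold for Gad1 and 1.17-fold for Slc32a1. Gad2 stood at 0.881-fold and Pvalb at 0.808-fold. In that rat the peptide genes were therefore displaced further than the enzyme and transporter genes, and Gad2 and Pvalb were displaced downwards. Its share of reads outside features, 32.9%, and its 27377086 gene reads were also the highest of the 8, and their part in these values was not tested.

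DsRed replicate 2 was its counterpart at the low end. It was the lowest of the 8 for Slc32a1, Sst, Vip and Cck, although it was the lowest for only 7.67% of all IDs, and it was below the median of the 8 for all genes but Gad1. Its log2 deviation from the median was -0.51 for Vip, -0.21 for Cck, -0.19 for Sst and -0.18 for Slc32a1. DsRed replicate 4 deviated upwards for Sst, by 0.32, and for Vip, by 0.23, while its Cck and Pvalb were within 0.014 of the median. A high somatostatin level was therefore seen in that rat without a high cholecystokinin level.

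**Figure D3:**
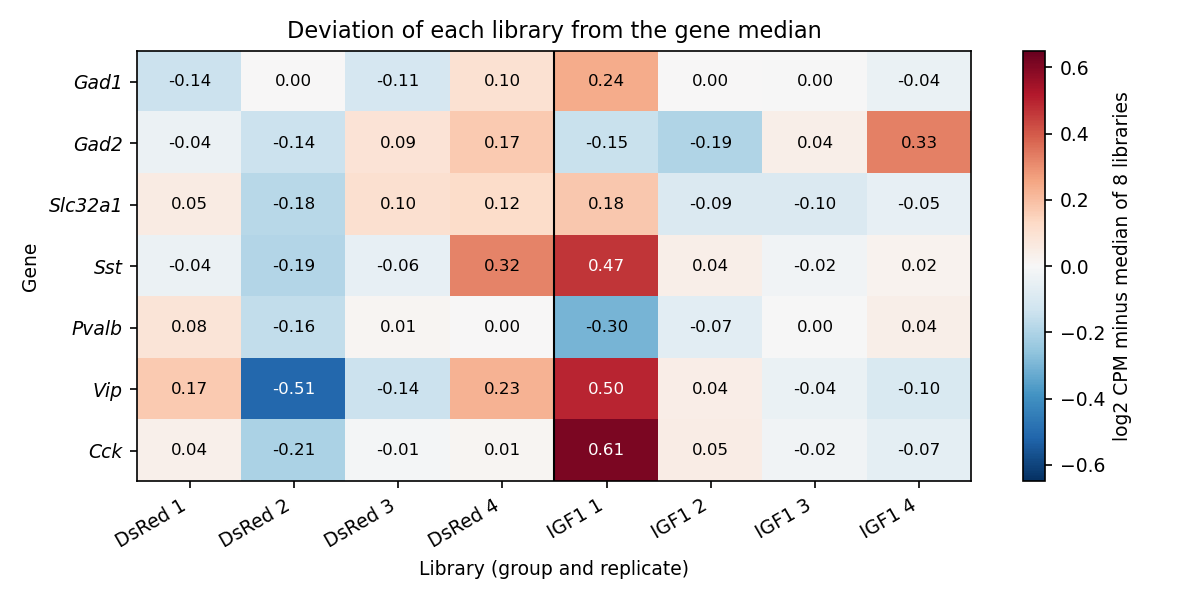
Log2 CPM of each gene (rows) in each library (columns) minus the median of that gene over the 8 libraries, printed in each cell; red is above and blue below the median, and the line separates the groups. The IGF1 1 column reaches 0.61 for Cck and -0.30 for Pvalb, the DsRed 2 column reaches -0.51 for Vip, and the remaining IGF1 columns stay near 0 except for Gad2.

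The spread between rats differed by gene and by group. In the DsRed group the coefficient of variation was 22.1% for Vip, 15.99% for Sst and 6.97% to 9.51% for the other 5 genes. In the IGF1 group it was 23.9% for Cck, 20.2% for Vip, 17.1% for Gad2 and 17.0% for Sst. Left without replicate 1, the other 3 IGF1 rats were close to one another for most genes, at 1.58% for Slc32a1, 1.72% for Gad1, 2.06% for Sst, 3.72% for Pvalb, 4.07% for Cck and 4.87% for Vip. Gad2 was the exception, at 18.2%. These 3 rats were set apart only after the values had been seen, and the difference in spread was not tested.

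The proportion of Gad2 to Gad1 varied between rats of the same group. The ratio of Gad2 to Gad1 reads within a library was 0.295, 0.337, 0.397 and 0.500 in IGF1 replicates 1 to 4. For the DsRed rats it was 0.415, 0.349, 0.444 and 0.406. A ratio within a library does not depend on the scaling between libraries. It spanned 1.69-fold over the 8 rats, with a counting error of 2.73% to 3.59% per ratio, and the IGF1 group held both the lowest and the highest value. The mean was 0.403 ± 0.040 for DsRed and 0.382 ± 0.089 for IGF1 (SD, n = 4 each), and exact two-sided permutation gave a p of 0.60. The log2 difference was -0.10, and 0.014 without IGF1 replicate 1. Across the 8 libraries log2 CPM of the 2 genes correlated at a Pearson r of -0.26 (exact permutation p = 0.544) and a Spearman rho of -0.33 (exact permutation p = 0.428), and r was 0.048 without IGF1 replicate 1.

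Set against the 2 decarboxylase transcripts together, no gene was detected in a different proportion between the groups. The 6 ratios compared (Gad2 to Gad1, and each of the other 5 genes to Gad1 plus Gad2) had exact two-sided permutation p of 0.257 to 0.686, with overlapping groups in each. For Pvalb the ratio was 0.158, 0.212, 0.213 and 0.210 in IGF1 replicates 1 to 4. The DsRed values were 0.246, 0.197, 0.225 and 0.198 in the same order of replicates. IGF1 replicate 1 was well below the 7 others, while the remaining IGF1 rats were nearly equal. For Cck the same rat had 0.712 reads per decarboxylase read, against 0.457 to 0.569 in the other 7. The log2 difference between the groups was -0.13 for Pvalb and 0.13 for Cck, and -0.027 and 0.0029 without that rat. For Sst and Vip it was 0.055 and 0.10, and -0.025 and 0.0031 without it. Slc32a1 had the smallest p of the 6, with 0.239 ± 0.024 for DsRed and 0.222 ± 0.011 for IGF1 (SD, n = 4 each) and an exact permutation p of 0.257. Its log2 difference was -0.10, and -0.13 without IGF1 replicate 1.

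**Figure D4:**
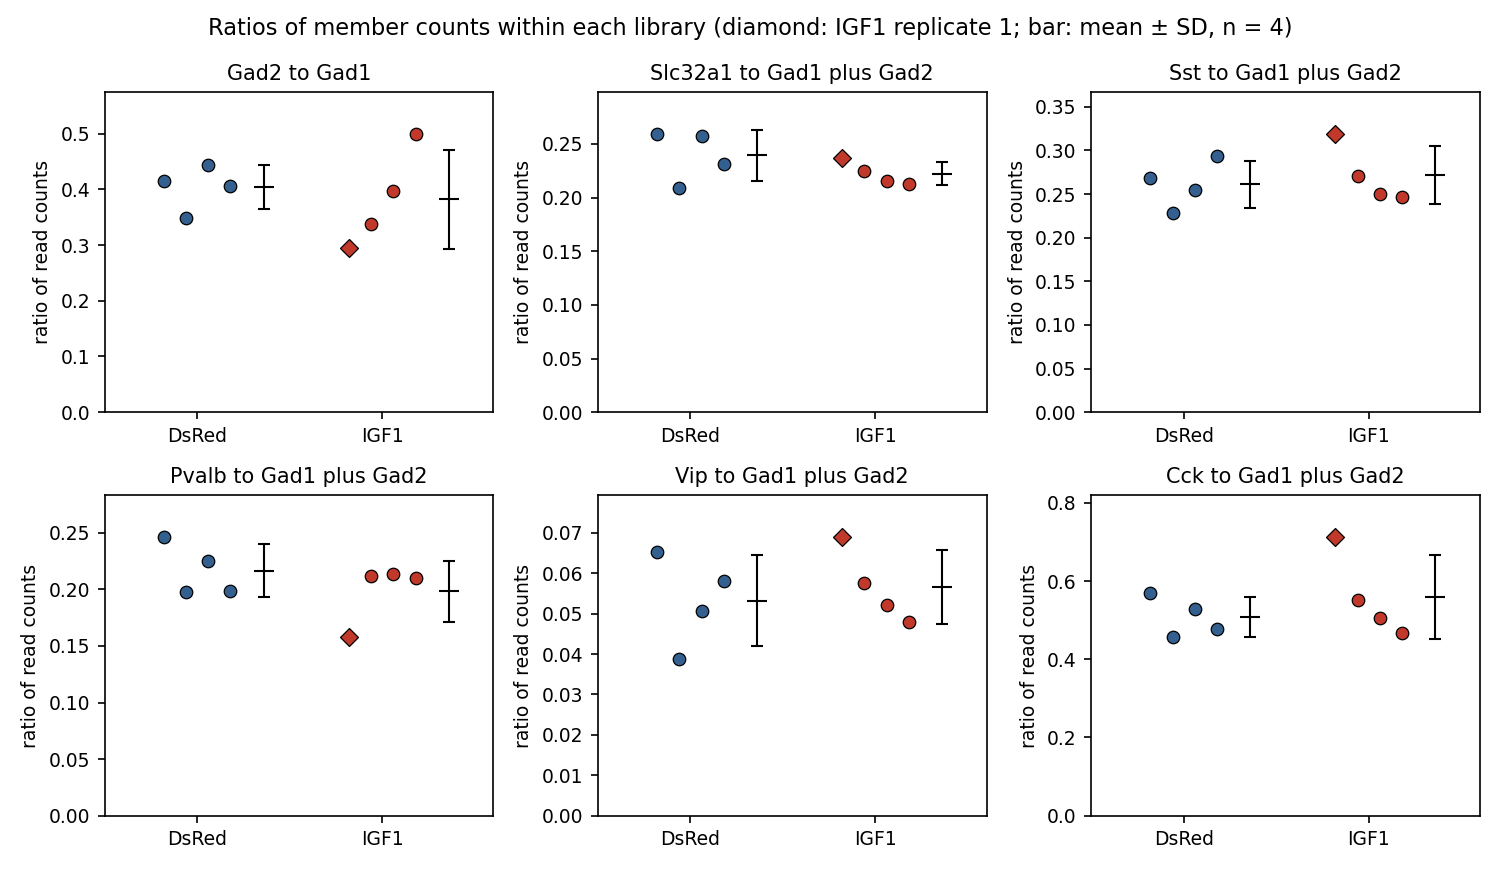
Ratio of read counts within each library (y axis, from 0) for the 6 ratios, by group; points are rats, the diamond is IGF1 replicate 1 and the bar is the mean with its SD (n = 4). The groups overlap in all 6 panels, Gad2 to Gad1 spans 0.295 to 0.500 within the IGF1 group alone, and the diamond is the lowest point for Pvalb and the highest for Sst, Vip and Cck.

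With Slc32a1 as the denominator, 1 of 4 further ratios separated the groups. Cck to Slc32a1 was 3.01, 2.45, 2.34 and 2.21 in IGF1 replicates 1 to 4. The DsRed rats had 2.19, 2.18, 2.05 and 2.06. Every IGF1 rat was thus above every DsRed rat, but the closest IGF1 and DsRed values, 2.21 and 2.19, differed by less than their counting errors of 3.88% and 3.87%. The log2 difference was 0.23, for which exact two-sided permutation gave a p of 0.0286, the smallest the design allows, and 0.286 after Benjamini-Hochberg adjustment over the 10 ratios. Without IGF1 replicate 1 it was 0.14, with an exact permutation p of 0.0286, and p was 0.0571 when any 1 of the 4 DsRed libraries was left out. For neither Cck nor Slc32a1 alone was a difference between the groups detected in the test across genes. Over the 8 libraries the log2 fold change was 0.21 for Cck and -0.039 for Slc32a1. Without IGF1 replicate 1 it was 0.031 for Cck and -0.11 for Slc32a1. All 4 ratios share the Slc32a1 denominator, so they are not independent. Whether the difference in ratio lies in Cck or in Slc32a1 was not tested. The ratios of Sst, Pvalb and Vip to Slc32a1 differed by 0.16, -0.030 and 0.20 on the log2 scale, with exact permutation p of 0.143, 0.971 and 0.229. With IGF1 replicate 1 left out these differences were 0.11, 0.11 and 0.14, with exact permutation p of 0.314, 0.143 and 0.371, so that of Pvalb changed direction. The p for Sst was 0.0286 without DsRed replicate 4.

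Between rats, the peptide genes tended to vary together, though no pair passed correction. Over the 21 pairs of genes and 8 libraries, 8 pairs had an exact permutation p under 0.05 for Pearson's r and 0 after Benjamini-Hochberg adjustment, with a smallest adjusted p of 0.0578. For Spearman's rho 3 pairs had p under 0.05 and 0 after adjustment. The share of such pairs among all IDs was not computed, so these counts have no background beside them. IGF1 replicate 1 was the highest library for 25.5% and the lowest for 23.5% of all IDs, so shared variation may not be particular to these genes. With deviations from the group means in place of levels, 6 pairs passed an adjusted p of 0.05 for r, all among Slc32a1, Sst, Vip and Cck, in a permutation that takes no account of the means removed. Sst and Vip had r = 0.88 (exact permutation p = 0.00275, adjusted 0.0578) and rho = 0.83 (p = 0.0154, adjusted 0.108), and r was 0.803 once the 2 libraries most distant from the Sst median were left out. Vip and Cck had r = 0.85 (exact permutation p = 0.0099, adjusted 0.0624) and rho = 0.83 (p = 0.0154, adjusted 0.108), with r = 0.65 once the 2 most distant from the Vip median were left out. Without IGF1 replicate 1 the r of Vip and Cck was 0.91 (adjusted p = 0.217 by exact permutation) and that of Sst and Vip 0.77 (adjusted p = 0.340 by exact permutation). Both pairs thus stayed positively related in the 7 other rats, without passing correction. Slc32a1 had r = 0.74 with Sst (exact permutation p = 0.0264, adjusted 0.0693) and 0.78 with Vip (exact permutation p = 0.0156, adjusted 0.0627). Without IGF1 replicate 1 alone these were 0.60 and 0.67 (adjusted p = 0.340 for each by exact permutation). They were 0.39 and 0.37 without IGF1 replicate 1 and DsRed replicate 2, the 2 libraries most distant from the Slc32a1 median. Leaving out the 2 most distant libraries narrows the range of the gene, for Sst and Vip above as well. A lower r therefore cannot show that a relation rests on those libraries.

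Pvalb against the other genes was a different case. With 8 libraries Pvalb had r = -0.81 with Gad1 (exact permutation p = 0.0179, adjusted 0.0627) and rho = -0.83 (p = 0.0154, adjusted 0.108). The r was -0.20 once the 2 libraries most distant from the Gad1 median were left out. That also narrows the range of Gad1, so it cannot show that the relation rests on those libraries. Without DsRed replicate 4 alone r was -0.92 (exact permutation p = 0.00198, adjusted 0.0208). It was -0.47, with rho = -0.75, when IGF1 replicate 1 alone was left out. With Cck it had r = -0.64 (exact permutation p = 0.119, adjusted 0.228) and rho = -0.19, and with Vip r = -0.22 (exact permutation p = 0.581, adjusted 0.718) and rho = -0.12. Without IGF1 replicate 1 these 2 values of r became 0.65 and 0.72. Of the 21 pairs, 9 changed sign when that library was left out, and the pairs with a positive r went from 13 to 18. Without DsRed replicate 2 alone, r of Pvalb was -0.94 with Cck and -0.72 with Vip. Without both IGF1 replicate 1 and DsRed replicate 2 it was -0.28 and 0.13. The sign of the relation between parvalbumin and these 2 peptide genes therefore depended on single animals. All 21 pairs share the same libraries and scaling.

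**Figure D5:**
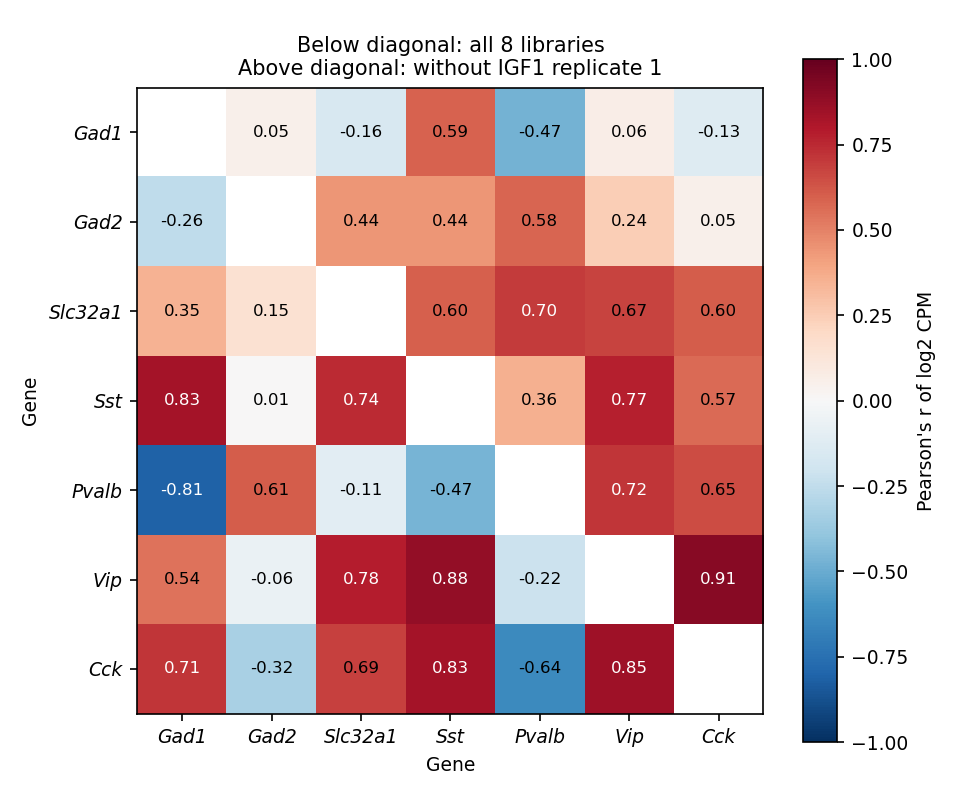
Pearson's r of log2 CPM for each pair of genes, over 8 libraries below the diagonal and without IGF1 replicate 1 above it; red is positive and blue negative. Sst, Vip and Cck are positively related on both sides of the diagonal (0.57 to 0.91), whereas the Pvalb values with Vip and Cck are -0.22 and -0.64 below the diagonal and 0.72 and 0.65 above it.

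The IDs most like Gad1 were sought among 12696 others whose mean log2 CPM reached 1 or more. The closest 2, over 8 libraries, were ENSRNOG00000014645 with r = 0.98 and ENSRNOG00000010021 with r = 0.98, and without IGF1 replicate 1 these were 0.96 and 0.94. Of the other 6 interneuron genes, Sst had the highest r with Gad1, at 0.83 (exact permutation p = 0.0119, adjusted 0.0624, rho = 0.60), and 0.59 without IGF1 replicate 1. With 8 libraries and so many IDs, high values of r are found by search alone, and they are given as a description.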

How the data were processed

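RNA was measured in the right hippocampus of 8 rats, 4 per group, from total RNA and an Illumina TruSeq kit, as the labels' protocols state. CASAVA 1.8.2, STAR, HTSeq and edgeR are named, without roles, in the submitters' processing notes. The build, annotation and strandedness were not given in the sources used here, so reads shared with overlapping or antisense genes cannot be separated. The deposited read counts are whole numbers per Ensembl ID, and 3 summary rows were not used. The second deposited table is named as log2 CPM but holds a linear signal up to 46718. Within a library its counts over signal are 1 constant to within a relative deviation of 3.05e-09, and it was used only as an alternative, on log2(value + 1), which understates changes of low genes.

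In R 4.3.3, edgeR 4.0.16 kept 14522 IDs by filterByExpr (minimum count 10, minimum total 15), scaled libraries by TMM and tested group alone by quasi-likelihood, two-sided, with Benjamini-Hochberg adjustment over all IDs. Its common biological variation was 11.8%, on 6 residual and 3.77 prior degrees of freedom. Standard errors (SE) are the log2 change divided by the root of F. Counting error is 1 over the square root of the count, combined for ratios, and covers counting only. Log2 CPM for correlations had a prior count of 2. Chi-square per degree of freedom was at least 5.74 in each of 28 library pairs, so none was a second deposit. The procedure was tested on simulated data.

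All 7 genes were named by rule, and the members and lists were chosen with earlier results of these data known. Alternatives were other scalings, filters and tests (DESeq2 1.42.0, limma 3.58.1), a replicate block and leaving out each library. Ratios and sums were compared by exact permutation over rats. The labels give separate rats per library, and nothing on litters or surgery days.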

Additional observations from a re-analysis of the deposited data

Results flagged for a closer look

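The levels and ratios were searched for rats far from the rest of their group, in 28 sets of 4 libraries, of which chance gives about 1 in 20. In 5 sets the gap to the nearest rat took up more of the range of the group than the 95% critical value of Dixon's test, and all 5 concern IGF1 replicate 1. It was highest of its group for the CPM of Gad1 (0.855 of the range), Slc32a1 (0.86), Sst (0.897) and Cck (0.86). It was lowest for the ratio of Pvalb to Gad1 plus Gad2 (0.95). The 5 sets come from 1 library and from genes that vary together, so they are not independent.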

How the results depend on the processing

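Leaving out 1 library gave log2 fold changes of 0.02 to 0.13 for Gad1, -0.12 to 0.059 for Gad2, -0.11 to -0.0079 for Slc32a1, -0.0059 to 0.24 for Sst, -0.12 to 0.0027 for Pvalb, 0.02 to 0.27 for Vip and 0.031 to 0.29 for Cck. Gad2 changed direction in 4 of these fits, and Sst and Pvalb in 1 each, without IGF1 replicate 1. Over 20 alternatives per gene no member passed, with adjusted p from 0.532 upwards. All IDs past the threshold numbered 0 in edgeR's quasi-likelihood test (958 at an unadjusted p under 0.05), 11 in its likelihood ratio test, 13 in DESeq2, 0 in limma voom, and 0 to 1 with 1 library left out (1 without DsRed replicate 2). Log2 differences in ratio with 1 library left out were -0.24 to 0.014 for Gad2 to Gad1, -0.025 to 0.11 for Sst, -0.042 to 0.21 for Vip, 0.0029 to 0.2 for Cck, -0.18 to -0.027 for Pvalb and -0.17 to -0.062 for Slc32a1, each to Gad1 plus Gad2. With Slc32a1 as the denominator the Cck value was 0.23. The summed CPM of Gad1, Gad2 and Slc32a1 differed by 0.221 to 18.5. Pairs of genes past an adjusted p of 0.05 for r numbered 0, but 6 with deviations from group means, and 0 to 2 with 1 library left out (1 without DsRed replicate 1, 1 without DsRed replicate 2 and 2 without DsRed replicate 4). Values of r then ranged from -0.42 to 0.048 for Gad1 and Gad2, -0.72 to 0.72 for Pvalb and Vip, and -0.94 to 0.65 for Pvalb and Cck. For all of these, the cause was not tested. A replicate block in the quasi-likelihood fit called 0 members and 0 IDs, listed 878 IDs at an unadjusted p under 0.05, and changed no call. Same-numbered libraries had deviations correlated at 0.055, 0.126, 0.244 and 0.134. Of these 3 are over 0.1 and 1 is not, and the labels name separate rats with no shared litter or day, so the numbers were not taken to pair the rats, though the values do not exclude a pairing. The block for the summed level was added after the data had been seen.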
